A study of Drosophila melanogaster with 2 samples.

Results

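The nuclear tRNA genes of Drosophila melanogaster were examined for peaks of the transcription factor Worniu, the product of wor. Members were all genes of biotype tRNA on the chromosome arms, with the mitochondrial tRNA genes left out. This gave 290 genes of 18277 annotated genes, transposable elements not counted. A tRNA gene was called bound where the summit of a peak of the authors' conservative list lay inside the gene or within 250 bp of either end. Chromatin immunoprecipitation followed by sequencing (ChIP-seq) had been done with an antibody against GFP on whole embryos aged 0 to 18 h of a transgenic strain that expresses a wor-eGFP fusion protein. The 2 biological replicates form 1 group, so the design holds no contrast between conditions, and no untagged or control library was analysed here. The sources used here do not say whether the strain keeps an untagged copy of wor or how many embryos were pooled. Whole embryos hold many cell types, so a site used by few cells and a site used weakly by many cannot be told apart.

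Worniu is a zinc finger protein of the Snail family, known for its role in neuroblasts, which are stem cells that give rise to the fly nervous system. Transfer RNA genes are short genes transcribed by RNA polymerase III (Pol III) from promoters that lie inside the gene. The factor TFIIIC recognises the A box and the B box within the transcribed sequence and places TFIIIB, which contains Brf, Bdp1 and a TATA-binding protein, upstream of the start. Transcription then ends at a short run of T after the gene. In budding yeast, strongly transcribed genes, tRNA genes among them, are known to be recovered in ChIP-seq of unrelated proteins.

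The tRNA genes with a peak carried the usual internal promoter. Of the 4 bound genes, the sequences of the 3 below and of a near-identical copy without a conservative summit are shown so that they can be compared base by base. Sequences are from the RefSeq Release 6 genome, 5′ to 3′ on the strand of the gene, with the A box and then the B box in capitals.
tRNA:Tyr-GTA-1-8: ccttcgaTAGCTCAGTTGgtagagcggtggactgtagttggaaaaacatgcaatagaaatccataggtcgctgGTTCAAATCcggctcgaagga
tRNA:Gln-TTG-2-1: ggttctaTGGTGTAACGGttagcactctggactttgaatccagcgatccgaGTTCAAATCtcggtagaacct
tRNA:Leu-TAA-2-1: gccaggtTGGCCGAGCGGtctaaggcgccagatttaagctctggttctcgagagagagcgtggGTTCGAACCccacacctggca
tRNA:Leu-TAA-1-1: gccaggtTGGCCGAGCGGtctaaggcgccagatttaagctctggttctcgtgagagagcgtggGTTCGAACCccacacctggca
The first 3 genes had a summit of the conservative list and tRNA:Leu-TAA-1-1 had summits of the weaker ranked list only. The last 2 differ by 1 base of 84, A51T, counted from 1 at the 5′ end of tRNA:Leu-TAA-2-1, and the change lies outside both boxes.

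Among all 290 genes the A box consensus was found in 272 and the B box, searched as GNTCNANNC, in 289. The stricter form GTTCGANNC was found in 160. Both were searched on the strand of the gene only. In windows of 73 bp centred on the conservative summits, read on 1 strand, the A box occurred in 4.11% and GNTCNANNC in 2.13%. A run of TTTT within 30 bp of the gene end was present at 277 genes. The box counts describe the members and are no test of their class, because the boxes are part of the tRNA sequence itself.

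The conservative list, the authors' set of peaks that passed the reproducibility limit with both replicates as input, held 3045 summits on the arms. A summit lay inside or within 250 bp of 4 of the 290 tRNA genes, a share of 1.38% (95% Wilson interval 0.538 to 3.49%, counting error only). Uniform placement of the same number of summits on each arm would reach 3.69 genes, so the observed count was 1.08 times the expected one. The same rule called 12.3% of the 17987 other annotated genes, most of which are longer and so offer a wider target than a tRNA gene with its median length of 73 bp. The 4 summits were distinct, against 3.16 expected, and the exact Poisson interval of the count ran from 1.09 to 10.2. A count of 4 was thus close to what uniform placement gives.

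None of the 4 summits lay inside a tRNA gene or within 100 bp of one. All were between 163 and 225 bp away, and 3 of the 4 were within 500 bp of an annotated start of a protein-coding gene. The exception was the peak at the glutamine tRNA gene.

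The strongest was beside tRNA:Tyr-GTA-1-8 (FBgn0012024), a tyrosine tRNA gene with an intron at 3R, 8669081 to 8669174 on the minus strand of dm6. The gene lies in introns of CG8036 and of p, the gene named pink. Its peak spanned 8669282 to 8669436 with a signal of 308, rank 313 of 3045 by signal, where signal is a value that the authors give each peak and that has no unit shared between lists. The summit was 219 bp upstream of the tRNA gene and 225 bp from a start of CG8036. In the ranked lists of the single replicates the peak had a signal of 170.2 in replicate 1, rank 299 of 55955, and of 135 in replicate 2, rank 376 of 36134. It stood high in both replicates and also passed the limit in both.

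The glutamine tRNA gene tRNA:Gln-TTG-2-1 (FBgn0052493) lies at X, 3427452 to 3427523 on the minus strand, in an intron of CG12535. Its peak, 3427557 to 3427920, had a signal of 157 and rank 976, with the summit 216 bp upstream of the gene. The replicates gave 81.3 and 73.2, ranks 1050 and 1052 of their ranked lists. This peak too passed the limit in both replicates, and the nearest annotated protein-coding start, of CG14269, was 8068 bp from the summit.

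The phenylalanine tRNA gene tRNA:Phe-GAA-1-2 (FBgn0052740) lies between genes at X, 6744471 to 6744543 on the minus strand. Its peak, 6744064 to 6744427, had a signal of 98.1 and rank 1866. The summit was 225 bp beyond the end of the tRNA gene and 8 bp from a start of RpL17, which encodes a protein of the large ribosomal subunit. Replicate 1 gave 58.4 and passed the limit, whereas replicate 2 gave 44.0 and was present in the ranked list only. The summit therefore sat far nearer to the RpL17 start than to the tRNA gene.

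The leucine tRNA gene tRNA:Leu-TAA-2-1 (FBgn0053536) lies between genes at 3R, 24112964 to 24113047 on the plus strand. Its peak, 24112619 to 24112982, had a signal of 84.5 and rank 2218, and it was the single conservative peak whose interval overlapped a tRNA gene. The summit was 163 bp upstream of the gene and 412 bp from a start of CG13605. The replicates gave 38.7 and 43.6, in the ranked lists only. This was the weakest of the 4 peaks and passed the limit in neither replicate alone.

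At the 250 bp limit, the members just inside were those of phenylalanine at 225 bp, tyrosine at 219 bp and glutamine at 216 bp. Just outside were tRNA:Leu-CAA-2-2 at 547 bp, with a peak of signal 93.0, tRNA:Ile-AAT-1-9 at 654 bp, with 67.4, and tRNA:Tyr-GTA-1-7 at 688 bp. The last of these refers to the same peak of 308 as its neighbour tRNA:Tyr-GTA-1-8. No gene lay between 225 and 547 bp, and 11 genes had a conservative summit within 1000 bp. The median distance from a tRNA gene to the nearest conservative summit was 14790 bp.

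The larger ranked list made from both replicates holds peaks before the reproducibility limit, 62469 of them on the arms, and most are weak. In it, 41 tRNA genes had a summit inside or within 250 bp, 14.1% (10.6 to 18.6%). Uniform placement gave 69.6 genes, a ratio of 0.589. The same rule called 61.8% of the other annotated genes. Counted as summits, there were 41 against 68.0 expected, a ratio of 0.603 with an exact Poisson interval of 0.433 to 0.818. The tRNA genes thus had fewer ranked summits than their number and width would give under uniform placement.

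The same count was made in the ranked list of each replicate, with 55955 summits on the arms in replicate 1 and 36134 in replicate 2. In the ranked list of replicate 1, 36 genes had a summit against 63.3 expected, a ratio of 0.569. In that of replicate 2, 36 genes had one against 42.5, a ratio of 0.847. For summits the ratios were 0.525 (0.359 to 0.741) and 0.842 (0.579 to 1.18), so the interval of replicate 2 included 1. The 2 intervals overlap, and whether the replicates differ was not tested. The number of genes was the same in both, with 11 genes shared, 25 found in replicate 1 alone and 25 in replicate 2 alone. This overlap was not counted over all genes, so whether it is low cannot be said. Another measure counts peaks, not genes, and is no baseline for it. By that measure, 21.3% of all peaks in the ranked list from both replicates had a match within 100 bp in each replicate's ranked list. Over all deposited lists, 77 tRNA genes had a summit in at least 1 list and 213 in none. Neither an expected number nor the share of other genes was computed for all lists together, so these counts have no baseline.

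**Figure D1:**
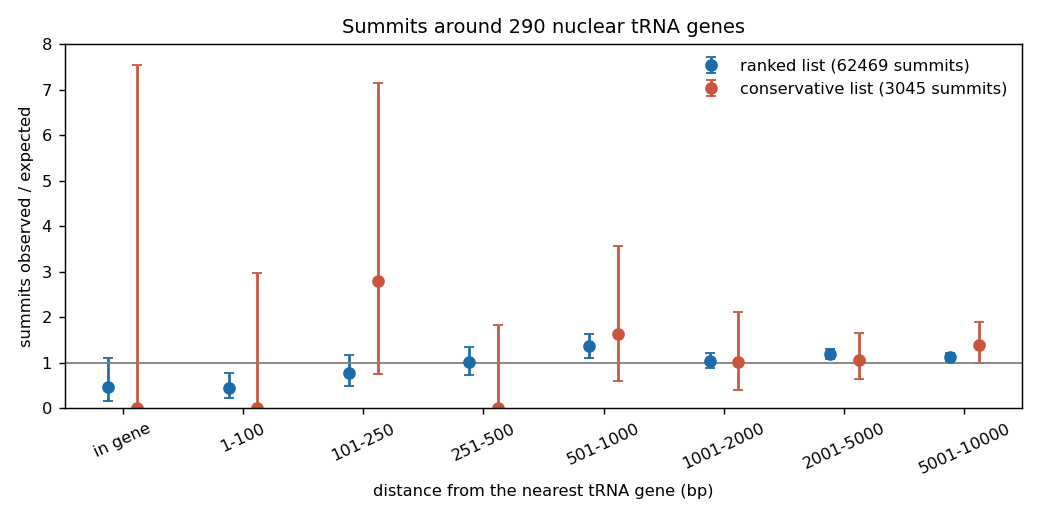
Observed over expected number of summits (vertical axis) by distance in bp from the nearest tRNA gene (horizontal axis), for the ranked list in blue and the conservative list in red, with exact 95% Poisson intervals and a grey line at 1. In the ranked list the ratio is 0.476 inside the gene and 0.449 at 1 to 100 bp, and 1.36 at 501 to 1000 bp.

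The lower count was nearest to the gene. Inside tRNA genes the ranked list had 5 summits against 10.5 expected, a ratio of 0.476 with an interval of 0.154 to 1.11 that includes 1. At 1 to 100 bp it had 12 against 26.7, a ratio of 0.449 (0.232 to 0.784), and at 101 to 250 bp 24 against 30.8, a ratio of 0.780 with an upper limit of 1.16. In the ranked list of replicate 2 both intervals included 1, with ratios of 0.825 (0.268 to 1.93) inside the gene and 0.779 (0.402 to 1.36) at 1 to 100 bp, while replicate 1 had 0.425 (0.116 to 1.09) and 0.501 (0.259 to 0.875). From 251 to 500 bp the count was at the expected level, with 44 against 43.5. Further out it was at or above it, with 107 against 78.7 at 501 to 1000 bp and 1303 against 1147 from 1 kb to 10 kb, a ratio of 1.14 (1.08 to 1.20). The plot of summits by distance shows this rise from the gene outwards. Ratios with repeated sequence left out of the expected count, which were lower further out, are given below. In the conservative list the same distances held 0 summits in the gene, 0 at 1 to 100 bp, 4 at 101 to 250 bp, 0 at 251 to 500 bp and 6 at 501 to 1000 bp, too few to show a shape.

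Summit positions have a limited precision. Of the ranked peaks 99.1% had the same width of 364 bp, and in 99.2% the summit was within 1 bp of the middle of the interval. In the conservative list 84.1% had that width. An interval of fixed width centred on the summit does not show how precisely the summit is placed. At the 4 conservative peaks, the matched summits of the single replicates' ranked lists lay 3 to 28 bp away. Small differences in distance are read with caution, because the sonicated fragments were 200 to 800 bp long.

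**Figure D2:**
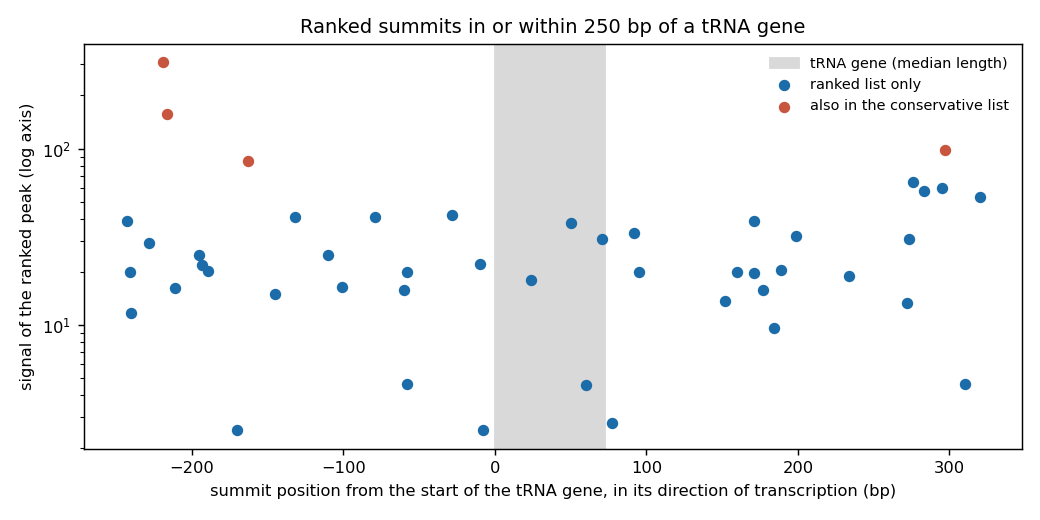
Signal of each ranked peak at a tRNA gene (vertical log axis, no unit) against the position of its summit in bp from the gene start in the direction of transcription (horizontal axis), with the gene at its median length in grey. The 4 red points, also in the conservative list, are the strongest at signals of 84.5 to 308, and none lies in the gene.

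The 41 summits made 47 pairs of summit and gene, because 6 summits were shared by 12 genes. Of the pairs, 23 were upstream of the gene, 19 downstream and 5 inside. The summits had a median signal of 22.0, against 26.3 for the whole ranked list. Of the 41, 17 (41.5%) were above the median of the list. In both replicates' ranked lists a summit within 100 bp was found for 13 of the 41 (31.7%), and for 21.3% of all ranked peaks. Only the 4 conservative summits reached an IDR of at most 0.01.

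Of the 37 genes with a ranked summit but no conservative one, signals ran from 2.52 to 64.5 with a median of 20.3. The strongest was at tRNA:Leu-TAA-1-1, whose sequence is given above, in an intron of bon. Its summit was 193 bp beyond the gene end, with a signal of 64.5, rank 3391, and 30.5 and 33.4 in the replicates. Its ranks in the replicates' ranked lists were 4784 and 3656, lower than those of tRNA:Leu-TAA-2-1. Next came tRNA:Glu-TTC-1-5 with 59.8, 34.3 and 20.1, at 224 bp beyond the end, and tRNA:Asp-GTC-1-5 with 57.3, 36.1 and 20.4, at 212 bp beyond it. The gene tRNA:Gly-GCC-1-13 had 53.1, with 26.2 and 30.3 in the replicates, at the outer edge of the window, 250 bp beyond the end. The last of the 5, tRNA:Gly-TCC-2-2, had 42.2, with 21.0 and 17.7, and its summit was the closest to a gene, 28 bp upstream. All 5 were found in both replicates, and 4 of the summits lay between 193 and 250 bp from the gene.

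The 5 summits inside a tRNA gene were of moderate or low signal: 37.8 in tRNA:Ser-AGA-3-2, 30.8 in tRNA:Arg-TCG-3-4, 17.9 in tRNA:Pro-TGG-1-3, 4.54 in tRNA:Leu-AAG-1-4 and 2.79 in tRNA:Leu-TAA-1-1. Of these 5 summits, that in the serine gene was the one matched within 100 bp in both replicates, at 16.7 and 17.8.

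The 3 strongest of these genes are shown because a summit falls within the transcribed tRNA sequence itself, again with the A box and the B box in capitals.
tRNA:Ser-AGA-3-2: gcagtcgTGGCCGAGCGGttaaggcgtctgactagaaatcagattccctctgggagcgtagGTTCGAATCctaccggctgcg
tRNA:Arg-TCG-3-4: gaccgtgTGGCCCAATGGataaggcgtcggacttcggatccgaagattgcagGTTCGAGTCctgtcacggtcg
tRNA:Pro-TGG-1-3: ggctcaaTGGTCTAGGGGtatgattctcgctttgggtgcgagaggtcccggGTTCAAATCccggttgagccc
None of these 3 had a conservative summit.

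The sequence under the 4 conservative summits is shown because the DNA there, not the tRNA gene, lies at the centre of each peak. Each is 101 bp of the plus strand centred on the summit, in lower case with no capitals because none of the searched motifs was found.
Summit at tRNA:Tyr-GTA-1-8, 3R:8669343-8669443: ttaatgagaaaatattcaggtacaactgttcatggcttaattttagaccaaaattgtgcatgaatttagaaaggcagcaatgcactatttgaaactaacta
Summit at tRNA:Gln-TTG-2-1, X:3427689-3427789: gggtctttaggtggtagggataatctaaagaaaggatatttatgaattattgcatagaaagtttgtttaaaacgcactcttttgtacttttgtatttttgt
Summit at tRNA:Phe-GAA-1-2, X:6744196-6744296: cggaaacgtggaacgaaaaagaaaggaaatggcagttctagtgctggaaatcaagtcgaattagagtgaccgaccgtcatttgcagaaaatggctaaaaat
Summit at tRNA:Leu-TAA-2-1, 3R:24112751-24112851: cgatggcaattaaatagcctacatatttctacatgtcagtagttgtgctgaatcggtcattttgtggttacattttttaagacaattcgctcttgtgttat
The motifs were searched on both strands: the Snail-type E-box CAGGTG, the proneural-type E-box CAGCTG, the GAGA element GAGAGAG and the DNA replication-related element TATCGATA. Among all 3045 conservative summits these occurred in 2.04%, 2.73%, 0.394% and 0.558% of windows of that length. Among the 41 ranked summits at tRNA genes, CAGGTG occurred at 1, CAGCTG at 0, GAGAGAG at 2 and TATCGATA at 1. Over all 62469 ranked summits the shares were 4.95%, 5.39%, 1.21% and 0.224% in that order. The G and C content of the 4 windows was 30.7%, 29.7%, 41.6% and 34.7% in the order shown, against a median of 30.7% over the conservative summits. With motifs this rare, 4 windows without one differ little from the list as a whole.

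Other short genes were counted by the same rule to place these values, without a test of any class against another. In the conservative list 1 of 269 snoRNA genes, 0 of 32 snRNA genes, 2 of 260 miRNA genes and 0 of 99 rRNA genes had a summit. In the ranked list, snoRNA genes had 46 against 67.8 expected, a ratio of 0.678, and miRNA genes 59 of 260 against 62.1, a ratio of 0.951. The snRNA genes had 10 against 9.05, and the rRNA genes 0 against 25.6. A lower count than uniform placement gives was therefore also seen outside tRNA genes.

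Starts of protein-coding genes, taken with the same 250 bp, differed from this. There the conservative list had 1046 of 13968, 7.49% and 5.80 times the expected number, and the ranked list 30.8%, 1.31 times. Ends of protein-coding genes had 0.938% in the conservative list, 0.727 times the expected number, and 15.8% in the ranked list, 0.671 times. In both lists the ratio at tRNA genes lay nearer to that of gene ends than to that of gene starts.

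**Figure D3:**
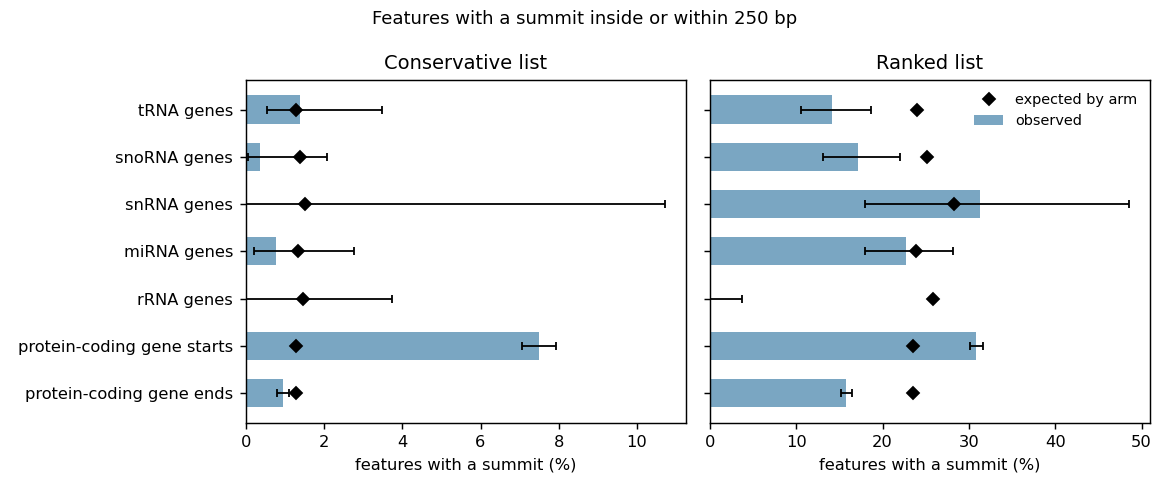
Percentage of features with a summit inside or within 250 bp (horizontal axis) by class of feature, in the conservative list on the left and the ranked list on the right, with 95% Wilson intervals and black diamonds for the share expected by uniform placement on the same arm. The bar of tRNA genes is at 1.38% on the left and 14.1% on the right, and protein-coding gene starts are at 7.49% and 30.8%.

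The 33 tRNA genes with a protein-coding start within 500 bp held 3 of the 4 conservative calls, against 0.417 expected. The 92 genes with a start at 501 to 2000 bp held 0, against 1.16, and the 165 genes further away held 1, against 2.11. For ranked summits these classes had 7 genes against 8.05, 13 against 22.3 and 21 against 39.3. The part that neighbouring promoters have in the tRNA calls was not tested.

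By arm, the 290 genes are spread unevenly, with 41 on 2L, 98 on 2R, 48 on 3L, 79 on 3R and 24 on X. Arms 4 and Y carry none. The conservative calls were 2 on 3R, against 0.939 expected, and 2 on X, against 0.361, and 0 on the other arms. Among ranked calls 2L had 3 genes against 10.5 expected, 2R 11 against 22.8, 3L 6 against 11.7, 3R 14 against 20.1 and X 7 against 4.64. The X chromosome was the one arm with more genes called than expected, and its 24 genes are few.

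By amino acid, the genes fall into 22 families with 44 anticodons, counting the initiator methionine and selenocysteine families separately. The 4 conservative calls came from 4 families. A ranked summit called at least 1 gene in 17 families, and 19 of the 22 were below the number expected. The families above it were tyrosine, with 6 of 10 genes against 2.53, methionine, with 2 of 6 against 1.44, and glutamate, with 5 of 19 against 4.50. Lysine, with 19 genes and 4.55 expected, isoleucine, with 11, tryptophan, with 8, the initiator methionine, with 6, and selenocysteine, with 1, had none.

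**Figure D4:**
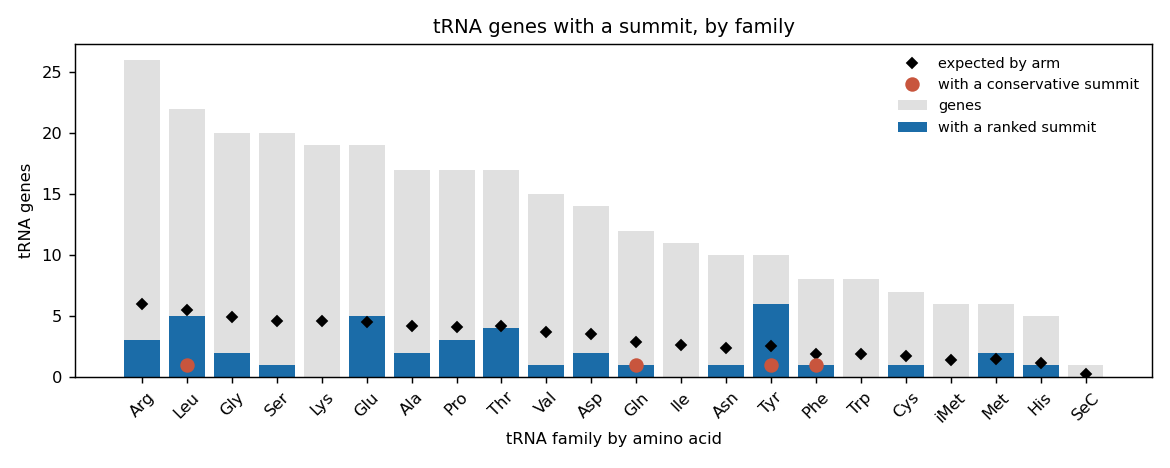
Number of tRNA genes (vertical axis) per family by amino acid (horizontal axis), with all genes in grey, genes with a ranked summit in blue, the number expected by uniform placement as black diamonds and genes with a conservative summit in red. Tyrosine has 6 of 10 genes called, and the lysine family has 0 of 19.

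The tyrosine genes were called mostly by weak summits. All 10 have an intron. Besides tRNA:Tyr-GTA-1-8, the called genes were tRNA:Tyr-GTA-1-1, with a signal of 13.4, tRNA:Tyr-GTA-1-2, with 16.1, tRNA:Tyr-GTA-1-4, with 13.6, tRNA:Tyr-GTA-1-5, with 4.62, and tRNA:Tyr-GTA-2-1, with 2.52. These values are below the list median of 26.3. Of these 5, tRNA:Tyr-GTA-1-2 had a summit in the ranked list of replicate 2, and in neither single-replicate ranked list did the other 4 have one. Including the tyrosine family, 16 tRNA genes have an intron, and 6 of them had a ranked summit against 4.07 expected. These 6 are the called tyrosine genes again, and none of the leucine and isoleucine genes with an intron had one.

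Copies of one tRNA sequence differed in their calls. The 290 genes have 95 distinct sequences, 238 have at least 1 identical copy, and the largest identical set has 13 genes. Of the 8 identical phenylalanine genes, tRNA:Phe-GAA-1-2 was the one called in the lists made from both replicates, while 4 of its copies had a summit in the ranked list of replicate 1 and another copy, tRNA:Phe-GAA-1-8, in that of replicate 2, with a signal of 22.7. The bound glutamine gene differs from each of its 3 nearest copies by C16T, counted from the 5′ end of tRNA:Gln-TTG-2-1, and none of the 3 had a summit in either list made from both replicates. One of them, tRNA:Gln-TTG-1-3, had a summit in the ranked list of replicate 2, with a signal of 18.4, 245 bp from the gene. The bound tyrosine gene differs from tRNA:Tyr-GTA-1-7 by A46T and C47T, counted in the same way, and that copy had no summit within 250 bp in any list. By number of copies, 12 of 52 single-copy genes had a ranked summit, against 12.7 expected. All 10 tyrosine genes are among the single-copy genes and gave 6 of these 12 calls, against 2.53 expected for that family. Genes with 2 to 4 copies had 6 of 58, against 13.5, and genes with 5 or more copies 23 of 180, against 43.5.

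Sequence repeated elsewhere in the genome can lose reads, so uniqueness was measured. A position was counted as unique where a 50-base word that starts or ends there occurs once in the genome. Over the 5 arms with tRNA genes 89.8% of positions were unique, whereas in windows of 250 bp around tRNA genes the mean was 98.1%. In 275 of the 290 genes every position was counted as unique. A word can run into the flanking sequence, so the rule can also count positions of the 238 genes with an identical copy as unique. All 4 conservative calls lay in windows counted as fully unique. Restricted to the 274 genes with windows at least 99% unique, an alternative chosen after seeing the data, 37 had a ranked summit against 65.9, a ratio of 0.561, and 4 a conservative one against 3.48. Counting expected summits on unique positions alone, the ratio for all genes was 0.543 in the ranked list. By this rule the ratio was no closer to 1. Loss of reads that lie wholly inside a repeated tRNA gene was not tested by it. The sources used here do not give the read length, and no uniqueness filter of the authors' alignment is known. For rRNA genes, by contrast, the windows had a mean of 6.23% unique positions beside their count of 0.

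By gene clusters, joined where neighbours lie within 1000 bp, there were 174 groups, of which 105 held a single gene and 69 held 2 or more, 185 genes in all. Single genes had 18 ranked calls of 105, against 25.3 expected. Groups of 2 to 3 genes had 18 of 134, against 32.3, and groups of 4 or more 5 of 51. The ratios of observed to expected were 0.711, 0.557 and 0.417, but clustered genes share summits and are not independent.

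In none of the 5 largest clusters did a gene have a conservative summit. The cluster at 2R, 13430282 to 13432794, holds 5 isoleucine and 2 leucine genes and had no ranked summit. The cluster at X, 14014814 to 14017284, holds 5 arginine and 2 serine genes, and 2 of its genes had one, tRNA:Arg-TCG-3-3 and tRNA:Arg-TCG-3-4, both from the same summit. The cluster at 3L, 3095737 to 3097590, with 4 cysteine and 2 lysine genes, had none, nor did that at 3R, 8139533 to 8141042, with 5 arginine genes and 1 asparagine gene. The cluster at 2R, 6161535 to 6162753, with 1 arginine, 3 asparagine and 1 lysine genes, also had none. Of these 5 groups with the most genes, 4 were thus without a ranked summit.

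The ratios were close to each other by position relative to other genes. Of the 127 tRNA genes in introns of protein-coding genes 18 had a ranked summit, a ratio of 0.593, and of the 156 between genes 22 had one, a ratio of 0.587. The 7 genes that overlap exons had 1.

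Genes that make or use tRNA were examined with a wider measure, a summit within 500 bp of an annotated transcript start. By it 10.6% of protein-coding genes had a conservative summit and 47.9% a ranked one. Of the 10 other Pol III genes outside the 5S rRNA genes, such as the U6 and 7SK RNA genes, 0 had a conservative summit and 6 a ranked one. The strongest was a summit of signal 64.0 shared by snRNA:U6:96Ab and snRNA:U6:96Ac, with 37.3 and 27.3 in the replicates. With 10 genes, a count of 0 differs little from a share of 10.6%. None of the 96 5S rRNA genes had a summit in either list, and the rRNA windows held the few unique positions given above.

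Of 21 genes of the Pol III machinery, 4 (19.0%) had a conservative summit near a start. Bdp1, a TFIIIB subunit, had a signal of 454, with 259 and 187 in the replicates. CG7099, a gene listed with TFIIIC, had 347, with 161 and 187. Brf, another TFIIIB subunit, had 225, with 132 in replicate 1 and no summit matched within 100 bp in replicate 2. Polr3E, a subunit of the polymerase, had 123, with 61.6 and 59.6. Brf was the one of the 4 that lacked such a match in a replicate. Over all conservative peaks, 87.0% had a match in both replicates' ranked lists.

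Of 20 cytosolic aminoacyl-tRNA synthetase genes, whose products charge tRNAs, 6 (30%) had a conservative summit. GluProRS had a signal of 358, with 193 and 168 in the replicates, SerRS 278, with 142 and 139, and IleRS 228, with 89.2 and 135. AsnRS had 102, with 52.8 and 43.6, ThrRS 88.7, with 47.2 and 39.1, and AspRS 80.3, with 32.6 and 46.2. All 6 had a summit in both replicates' ranked lists. In the ranked list made from both replicates, 13 of the 21 machinery genes (61.9%) and 13 of the 20 synthetase genes (65%) had a summit. The shares of all protein-coding genes were 10.6% in the conservative list and 47.9% in the ranked list, and whether these gene lists differ from them was not tested.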

How the data were processed

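ChIP-seq of a wor-eGFP fusion was analysed from 4 thresholded and 4 ranked peak lists deposited by the authors, of which each replicate has 1 of either kind and both replicates together have 2. Per the labels, chromatin was sonicated and the assembly was dm6. The sources used here name no aligner or peak caller and give no depth per library. The deposited score of each peak is a whole number from the irreproducible discovery rate (IDR) step and was not used for ranking. The signal is a value the authors give each peak and was compared within 1 list only. The deposited ranked lists give the −log10 of the IDR per peak. The other value used from the deposited lists was the offset of the summit from the peak start.

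Genes were those of Ensembl release 115 (BDGP6 annotation 54), and sequences came from RefSeq Release 6. The expected number of genes is the sum over genes of the chance that at least 1 of the arm's summits falls in the window under uniform placement, computed in closed form. No p-value was computed. Shares carry 95% Wilson intervals and summit counts exact Poisson intervals, both for counting error only. Replicate summits were matched within 100 bp. Python 3.11.15, pandas 2.3.3, numpy 2.4.6 and scipy 1.17.1 were used, and the counting was checked on simulated summits.

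Named genes were all tRNA genes with a conservative summit, the 5 highest ranked signals without one, the 5 largest clusters, the 3 genes on either side of the 250 bp limit and pathway genes with a conservative summit. The inside tRNA summits, the tyrosine family, the copies of bound genes and the ranked U6 summit were named after their values were seen. The members and the lists were chosen with earlier results of these data known. Peaks on unplaced contigs were left out. Alternatives are given in the closing section.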

Additional observations from a re-analysis of the deposited data

How the results depend on the processing

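The 4 conservative calls depended on the distance and on the peaks used. Within 100 bp, 0 genes and 0 summits were left, and within 500 bp the counts were again 4 genes and 4 summits. With overlap of the peak and the gene as the rule, 1 gene was called. The peaks above the median signal called 2 genes, and leaving out tRNA genes within 500 bp of a protein-coding start left 1 of 257. Leaving out a replicate, by use of the other replicate's own list, gave 2 to 3 genes and 2 to 3 summits. The second thresholded list, the removal of weaker overlapping peaks and windows of unique sequence each gave 4.

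The count of 41 genes in the ranked list was 17 within 100 bp (35.8 expected), 80 within 500 bp (116 expected), 27 by overlap (54.6 expected) and 18 with peaks above the median signal (37.3 expected). The remaining alternatives gave 31 to 37 genes, with 36 without either replicate. The ratio of observed to expected was below 1 in each of the alternatives run, from 0.475 to 0.847, and highest without replicate 1. No paired analysis was possible because the samples form 1 group.

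With 4 conservative calls, an excess or a lack of moderate size over uniform placement cannot be shown. The sources used here give neither depth per library nor read length, and no control library was analysed.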
